A study of Mus musculus with 2 samples.

Results

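Notch receptors, their ligands, the DNA-binding partner of the receptors and a pair of their target genes were examined in mouse dorsal skin after FGF18. The set holds 10 genes, chosen by symbol: the receptors Notch1, Notch2, Notch3 and Notch4, the ligands Jag1, Jag2 and Dll1, the transcription factor Rbpj, and the targets Hes1 and Hey1. All 10 were measured, among 22180 genes in all. They come from 12 transcript clusters (the array's probe set for a transcript), because Dll1 and Rbpj have 2 clusters each.

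The FGF18 sample was skin of male BALB/cAJcl mice aged 7 weeks, from back skin depilated to bring hair follicles into their growth phase, anagen. These mice received 100 µg of FGF18, a fibroblast growth factor, into the peritoneum 6 days after depilation, in saline holding heparin at 5 µg/µl. Total body γ-irradiation at 6 Gy came 24 h later, and the skin was taken 4 h after the radiation. The saline sample has the same strain, sex, age and tissue, and its label calls it a control. The labels do not state whether the control was irradiated or given heparin, nor how many mice gave each sample. For the control, no day after depilation and no time of skin sampling are given either. Effects of these cannot be told apart from that of FGF18. Each group is 1 Affymetrix Mouse Gene 2.0 ST array, so there is no replicate, no spread between animals and no significance test, and each difference compares these 2 arrays. The skin was used whole, so in every result fewer cells of a type and less RNA per cell cannot be told apart.

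Notch receptors are membrane proteins that are cut when a ligand on a neighbouring cell binds them. The freed intracellular part enters the nucleus, joins the DNA-binding protein RBPJ and a Mastermind coactivator, and switches on targets, of which the Hes and Hey repressor genes are the best known. In mouse epidermis the pathway is known for moving basal cells into the suprabasal layers, and in the hair follicle for keeping the lineages of the hair matrix and inner root sheath in order. Outside the epithelium, NOTCH4 is known from endothelium and NOTCH3 from the mural cells of vessels.

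The bases before the start sites of Notch1, Jag1 and Notch2 are shown because the first 2 of these genes had the largest differences of the set and Notch2, a receptor of the same family, did not share them. Each run is 250 bases long and ends at the base before the start, written 5′ to 3′ on the strand of the gene, from RefSeq on GRCm38.p6. Capitals mark CACGCG or its reverse CGCGTG, the class C box that HES and HEY proteins are known to bind. The Notch1 run lies on the minus strand at chr2:26503823-26504072, the Jag1 run on the minus strand at chr2:137116521-137116770, and the Notch2 run on the plus strand at chr3:98013288-98013537.
Notch1: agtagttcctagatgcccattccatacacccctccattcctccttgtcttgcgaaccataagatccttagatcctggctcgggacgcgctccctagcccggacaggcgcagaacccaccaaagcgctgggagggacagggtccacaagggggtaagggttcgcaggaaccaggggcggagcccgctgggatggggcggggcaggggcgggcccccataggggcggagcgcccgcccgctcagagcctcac
Jag1: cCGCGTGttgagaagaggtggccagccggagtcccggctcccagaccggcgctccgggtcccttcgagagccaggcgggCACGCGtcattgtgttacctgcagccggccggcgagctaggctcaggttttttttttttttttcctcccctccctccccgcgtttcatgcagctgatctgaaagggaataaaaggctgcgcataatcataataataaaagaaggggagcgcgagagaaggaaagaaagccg
Notch2: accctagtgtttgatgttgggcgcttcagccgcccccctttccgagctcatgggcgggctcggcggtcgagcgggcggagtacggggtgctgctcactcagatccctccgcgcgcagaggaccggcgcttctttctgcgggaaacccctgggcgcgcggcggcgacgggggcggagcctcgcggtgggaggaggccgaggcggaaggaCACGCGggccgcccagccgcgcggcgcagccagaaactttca

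The Jag1 run holds 2 class C boxes, one on the minus strand at bases 249 to 244 before the start and one on the plus strand at bases 171 to 166. The Notch2 run holds 1, on the plus strand at bases 42 to 37, and no match was found in the Notch1 run. The 8 genes with windows have 10 windows in all. Counted per gene, 3 had a class C box, and the one not printed is Dll1, with 1 box on the plus strand at bases 68 to 63. Of 32851 promoter windows of this length in the RefSeq table, 7.62% hold a class C box, a share per window and not per gene. The core letters bound by RBPJ, TGGGAA or TTCCCA on the other strand, were found in 21.6% of these windows, and in none of the runs printed here. Windows were available for 8 of the 10 genes, and the targets Hes1 and Hey1 had none and were not searched. Among the 8 genes only Rbpj itself had the RBPJ core, in windows that overlap each other. The longer form GTGGGAA, or TTCCCAC, which contains the core and is in 5.42% of windows, was in no window of these genes. G and C made up 66.0% of the Notch1 run, 57.2% of the Jag1 run and 72.0% of the Notch2 run, against a median of 52.4% over all windows. A match in these letters is a description and not a bound site.

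The largest differences of the set were those of 1 receptor and 2 ligands, all higher on the FGF18 array. Notch1, the main receptor of interfollicular epidermis, read 230.2 on the FGF18 array and 138 on the saline array. Jag1, the ligand gene known from suprabasal epidermis and the hair bulb, read 197 on the FGF18 array and 122 on the saline array. Jag2, a ligand gene known from basal epidermis and the hair matrix, read 91.0 on the FGF18 array and 60.0 on the saline array. All 3 were well above the arrays' median intensities of 13.8 for FGF18 and 14.0 for saline. Each difference is the FGF18 value minus the saline value, both as log2(intensity + 1), a scale that slightly understates the change of dim genes. On that scale Notch1 differed by 0.74 (1.67-fold higher), Jag1 by 0.69 (1.62-fold higher) and Jag2 by 0.59 (1.51-fold higher). Counts over all genes use the 11090 genes whose mean over both arrays reached the median over genes, called the brighter genes here. Ranked from the highest difference among the brighter genes, Notch1 was number 160, Jag1 number 210 and Jag2 number 391.

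**Figure D1:**
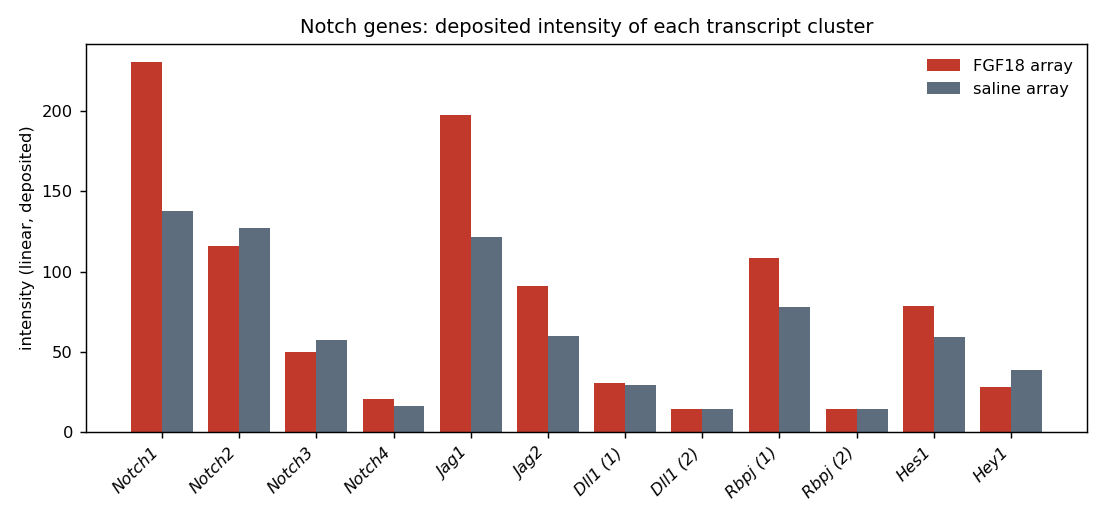
Deposited linear intensity (vertical axis) of the 12 transcript clusters of the 10 Notch genes on the FGF18 array (left bar of each pair) and on the saline array (right bar), 1 array each, with no error bars because there are no replicates. Notch1 at 230.2 and 138 and Jag1 at 197 and 122 show the widest gaps in intensity, while the second clusters of Dll1 and Rbpj are equal on both arrays. Heights of different genes come from different probes and cannot be compared.

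The other 3 receptors did not go one way. Notch2, which epidermis and follicle also express, read 116 on the FGF18 array and 127 on the saline array, a difference of -0.14. Notch3, a receptor known from vessel mural cells, read 50.1 on the FGF18 array and 57.4 on the saline array, a difference of -0.19. Notch4, the endothelial receptor, read 20.8 on the FGF18 array and 16.2 on the saline array, higher than 62.0% and 54.6% of all clusters, and its difference was 0.34. With a pseudocount of 16 in place of 1 the Notch4 difference was 0.19. Over the 4 receptors the differences thus ran from -0.19 to 0.74, with a median of 0.10.

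Dll1, the ligand gene of the Delta type, stood apart from the Jagged genes. Its brighter cluster read 30.8 on the FGF18 array and 29.4 on the saline array. The other cluster read 14.4 on both, a value near the arrays' medians. Averaged over both clusters, Dll1 differed by 0.03. The ligands therefore spanned differences from 0.03 to 0.69.

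Rbpj, through which all 4 receptors act on DNA, gave unlike values in its 2 clusters. One read 109 on the FGF18 array and 77.8 on the saline array, a difference of 0.48. The other read 14.7 on both arrays to every deposited digit, as did 4.90% of all clusters at their own levels. The averaged difference of Rbpj was 0.24, and it was 0.48 when clusters with equal values on both arrays were left out or when the brighter cluster alone was used.

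The targets Hes1 and Hey1 differed in opposite directions. Hes1, a bHLH repressor that follows Notch activity in spinous cells, read 78.3 on the FGF18 array and 59.3 on the saline array, a difference of 0.39 (1.31-fold higher). Hey1, a related repressor known also from vessels and the dermal papilla, read 28.3 on the FGF18 array and 38.7 on the saline array, a difference of -0.44 (1.36-fold lower). Neither reached 1.5-fold. Hey1 had the lowest difference of the set and was number 835 from the lowest among the 11090 genes ranked.

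Counted over the set, 3 of 10 genes were at least 1.5-fold higher on the FGF18 array, where 3.64% of the 11090 brighter genes were. None of the 10 was at least 1.5-fold lower, where 4.63% of those genes were. At 2-fold, 0 of the 10 were called, where 0.379% of genes were higher and 1.65% lower. By direction alone 7 were higher and 3 lower, where 59.4% of genes were higher and 38.0% lower. The median difference of the set was 0.29, with a range from -0.44 to 0.74, and that of the 11090 genes was 0.07. All 10 were among the brighter genes, so no gene of the set was lost to that filter.

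The files allow 1 measure of error. Over 319 symbols with at least 2 clusters that reached the median, the difference of a cluster scattered about its symbol's mean with a standard deviation of 0.24 (log2), which covers disagreement between probe sets and not animals. The differences of Notch1, Jag1, Jag2, Notch4, Hes1 and Hey1 were larger than this value in size, and those of Notch2, Notch3, Dll1 and Rbpj were not. The value is for a single cluster, while Dll1 and Rbpj are averages over 2, so for them it is not like with like. This split depended on the processing. After subtraction of the trend of difference on intensity, Notch2 was at -0.24, level with that value in size as printed, and Notch3 was past it at -0.30. The standard deviation itself was taken without that subtraction. Rbpj was past it at 0.48 with its brighter cluster alone, and Notch4 was below it at 0.19 with a pseudocount of 16.

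**Figure D2:**
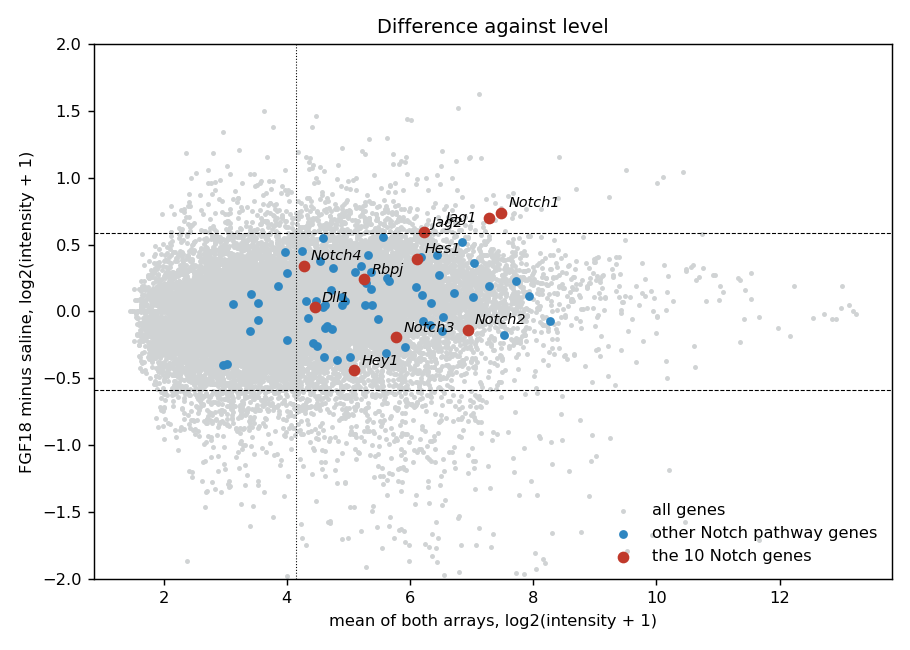
Difference of FGF18 from saline in log2(intensity + 1) (vertical axis) against the mean of both arrays in the same unit (horizontal axis) for 22180 genes (grey), 65 other Notch pathway genes (blue) and the 10 Notch genes (red). Dashed lines mark 1.5-fold and the dotted line the median level, and 34 genes lie outside the vertical axis. Notch1, Jag1 and Jag2 are the only red or blue points above the upper dashed line.

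Other genes of the pathway were read from 8 lists, in which 65 genes were analysed. None of the 65, of which 54 were among the brighter genes, reached 1.5-fold in either direction. Of all brighter genes 3.64% were that much higher and 4.63% lower. With the brightest cluster of each symbol used alone, Dtx1, a Deltex ubiquitin ligase gene named after its value was seen, was past 1.5-fold with a difference of 0.60. With clusters averaged, 42 of the 65 differences were positive and 23 negative, and their median was 0.08. The 11090 brighter genes leaned the same way, as 59.4% of them had positive and 38.0% negative differences, around a median of 0.07. Counts by direction in the lists that follow are to be read beside these shares.

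Closest to the threshold were Heyl and Hes2, from the further genes of the Hes and Hey family. All 7 further genes of this family were higher on the FGF18 array, with differences from 0.05 to 0.56 and a median of 0.29. Of the 7, 5 were among the brighter genes, and Hes3 and Hes7 were not. Heyl, a Hey gene known as a target of NOTCH3 in mural cells, read 56.5 on the FGF18 array and 38.1 on the saline array, a difference of 0.56. Hes2 read 28.2 on the FGF18 array and 19.0 on the saline array, a difference of 0.55. Hes5, a target best known from the nervous system, and Hey2, known from arteries and the dermal papilla, differed by 0.08 and 0.05. After subtraction of the trend of difference on intensity 6 of the 7 were higher. With the brightest cluster of each symbol used alone 5 were higher and 1, Hes7, was lower at -0.13, and the median was 0.07. With a pseudocount of 16 the median was 0.09.

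Among 6 measured genes reported elsewhere as direct or indirect Notch targets, 4 had positive differences and 2 negative ones, and the median was 0.16 (0.06 after subtraction of the intensity trend). Ccnd1, the G1 cyclin gene, read 136 on the FGF18 array and 95.0 on the saline array, a difference of 0.52. Cdkn1a, the p21 cell cycle inhibitor gene that NOTCH1 is known to induce in mouse keratinocytes, read 227 on the FGF18 array and 193 on the saline array, a difference of 0.23. Nrarp, a feedback inhibitor whose transcript is a direct Notch target, read 76.2 on the FGF18 array and 81.8 on the saline array, a difference of -0.10. Gata3, a transcription factor gene of the inner root sheath, differed by -0.06. Nrarp and Hes1, both direct targets, thus lay on opposite sides of 0.

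Enzymes that add sugars to the receptors in the secretory pathway had 4 of 5 members higher. Pofut1, the O-fucosyltransferase gene, read 21.2 on the FGF18 array and 15.2 on the saline array, a difference of 0.46. Poglut1, the O-glucosyltransferase gene, read 99.7 on the FGF18 array and 74.1 on the saline array, a difference of 0.42. The fringe genes Lfng and Mfng, whose products change which ligand a receptor prefers, differed by 0.11 and -0.26. The median of these enzymes was 0.16.

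The machinery that cuts the receptors did not go one way, as 4 of 9 genes were higher and 5 lower, around a median of -0.04 (-0.15 after subtraction of the intensity trend). Adam10, the protease gene of the ligand-dependent cut, read 165 on the FGF18 array and 144 on the saline array, a difference of 0.19, and the related protease gene Adam17 differed by -0.31. Among subunits of γ-secretase, which frees the intracellular part, Aph1a differed by 0.25 and Aph1c by -0.34.

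Genes of ubiquitin ligases and endocytic adaptors, which act on ligands and receptors, were higher in 5 of 13 cases and lower in 8 (3 and 10 after subtraction of the intensity trend), around a median of -0.12. Neurl1a, a Neuralized-type ligase gene, differed by 0.42 and Mib2, a Mind bomb ligase gene, by 0.32. Neurl3 and the Deltex gene Dtx4 differed by -0.36 and -0.34.

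Of 7 coactivator genes 4 were higher, around a median of 0.03 (3 and -0.01 after subtraction of the intensity trend). Maml3, a Mastermind gene, differed by 0.34 and Snw1, the gene of the SKIP protein, by 0.27, while the acetyltransferase genes Ep300 and Crebbp differed by -0.14 and -0.07. Of 13 corepressor genes 11 were higher (9 after subtraction of that trend), around a median of 0.12, with Ctbp1 at 0.41 and the Groucho-type gene Tle3, whose product HES proteins recruit, at 0.36. The lowest among the brighter corepressor genes were Ctbp2 and Hdac1, at 0.05 and 0.07.

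The other ligand genes were dim. Of 5, the 4 genes Dll3, Dll4, Dlk1 and Dner lay below the median intensity of each array. Dll4, the endothelial ligand gene, read 10.2 on the FGF18 array and 9.26 on the saline array and is not shown above background on these arrays. The atypical ligand gene Dlk2 read 24.1 on the FGF18 array and 23.3 on the saline array.

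**Figure D3:**
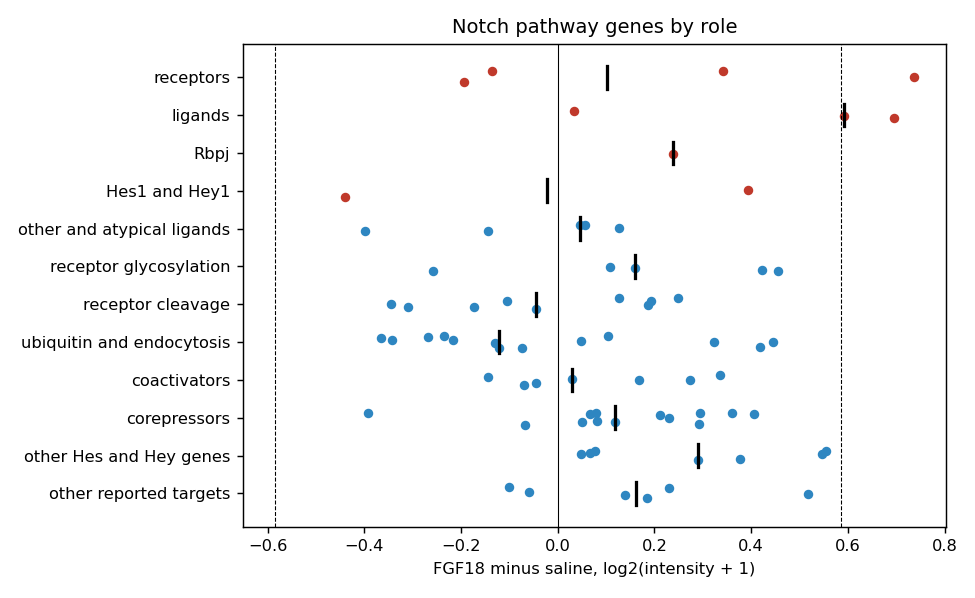
Differences of FGF18 from saline in log2(intensity + 1) (horizontal axis) for the 10 Notch genes (red) and 65 other pathway genes (blue) by role, each point 1 gene and each black bar the median of its row. Dashed lines mark 1.5-fold. The ligands' row reaches 0.69 and the receptors' row 0.74, and no blue point passes a dashed line.

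Markers of the cells that carry Notch genes also differed between the arrays, and their part in the Notch values was not tested. All 12 markers of suprabasal keratinocytes, where Notch1 and Jag1 are known to act, were lower on the FGF18 array by 1.5-fold or more. Of the 11090 brighter genes 4.63% were that much lower. The summed intensity of the 12 markers was 5557 on the FGF18 array and 19885 on the saline array, and their median difference was -1.75. Of the 10 Notch genes 7 were higher on the FGF18 array, Notch1, Jag1 and Hes1 among them, opposite in direction to these markers. The other 3, Notch2, Notch3 and Hey1, were lower, as the markers were. Basal keratinocyte markers had a median of 0.03 over 7 genes (-0.07 after subtraction of the intensity trend), with summed intensities of 918 on the FGF18 array and 1099 on the saline array. Of these 7 genes 4 were higher and 3 lower. Krt14, the basal keratin gene, differed by -0.81, whereas Col17a1 and Itgb4, genes of the hemidesmosome that anchors basal cells, differed by 0.39 and 0.37. Without Krt14 the summed intensities were 590.2 on the FGF18 array and 524 on the saline array, so the lower sum on the FGF18 array rests on that gene.

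The medians of the 4 follicle marker lists were positive, as were the differences of Notch1, Jag1 and Jag2, while those of Notch2, Notch3 and Hey1 were negative. Positive medians were not particular to the follicle. Melanocyte markers had 0.38 and macrophage markers 0.49, while the medians of fibroblast and skeletal muscle markers were negative. Not every follicle marker was higher. The counts at 1.5-fold that follow are to be read beside the 3.64% of the 11090 brighter genes that were that much higher. Of 9 inner root sheath markers 8 were at least 1.5-fold higher on the FGF18 array and 1, Gata3, was lower at -0.06, with a median of 0.96 and summed intensities of 6267 on the FGF18 array and 3176 on the saline array. Of 10 hair matrix and cortex markers 7 were at least 1.5-fold higher, with a median of 0.70 (with a pseudocount of 16, 5 were) and summed intensities of 928 on the FGF18 array and 563 on the saline array. Outer root sheath and bulge markers had a median of 0.27 over 8 genes, with 6 higher, 2 of them at least 1.5-fold, and 2 lower, among them Cd34 at -0.23, and with summed intensities of 1370 on the FGF18 array and 1018 on the saline array. Dermal papilla markers had a median of 0.33 over 10 genes, 7 higher and 3 lower, with summed intensities of 590.0 on the FGF18 array and 428 on the saline array.

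Markers of vessels, a known but not the only site of such genes as Notch4, Notch3 and Heyl, differed little as lists. Endothelial markers had a median of 0.00 over 10 genes (-0.10 over the brighter 5), 5 of which lay below both arrays' medians, and summed intensities of 156 on the FGF18 array and 167 on the saline array. Lowest of the brighter 5 were the endothelial cadherin gene Cdh5 at -0.66 and Kdr at -0.43. Highest of them were Pecam1 at 0.21 and Sox17 at 0.00, while Notch4 differed by 0.34. For 8 markers of smooth muscle and pericytes the median was 0.18 (0.08 after subtraction of the intensity trend), with summed intensities of 605 on the FGF18 array and 543 on the saline array. In this list Acta2 differed by 0.33 and Rgs5 by -0.25, while Notch3 differed by -0.19 and Heyl by 0.56.

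The remaining marker lists had medians of -0.29 for fibroblasts, -0.08 for skeletal muscle, 0.38 for melanocytes, 0.49 for macrophages and 0.17 for T cells. Skeletal muscle markers were bright, with summed intensities of 5837 on the FGF18 array and 6292 on the saline array. T cell markers were dim, with none of 5 among the brighter genes.

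**Figure D4:**
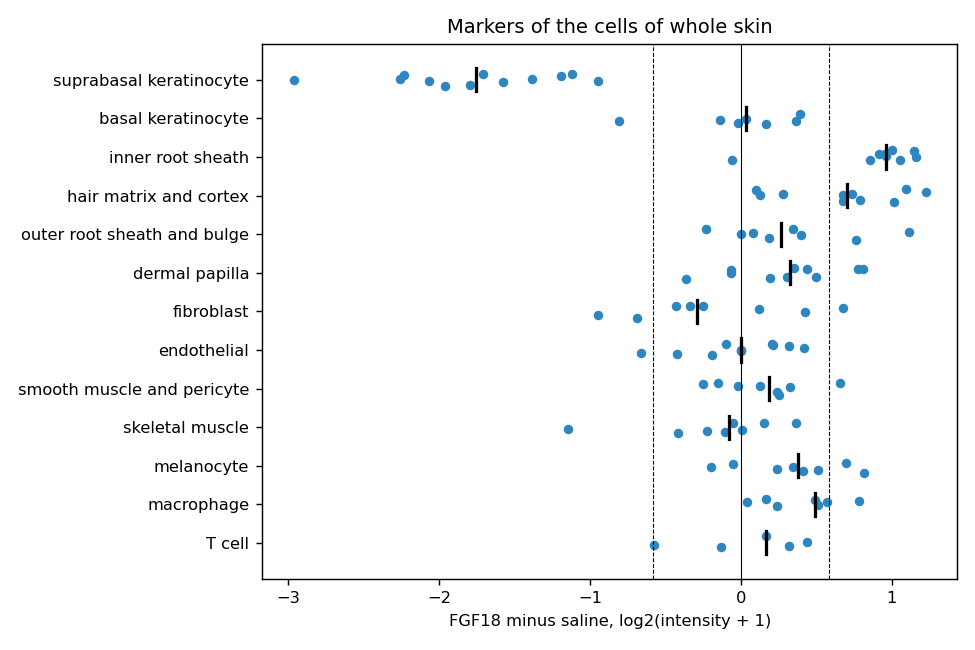
Differences of FGF18 from saline in log2(intensity + 1) (horizontal axis) for marker genes of the cells of whole skin, each point 1 gene and each black bar the median of its row. Dashed lines mark 1.5-fold. All 12 suprabasal keratinocyte markers lie left of the lower dashed line and 8 of 9 inner root sheath markers right of the upper one.

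The direction of each of the 10 Notch genes was the same under all 7 other ways of processing that were tried. Most of these could not change it. Centring subtracted a median of 0.00, no cluster of the set had several symbols, and a pseudocount cannot reverse a single cluster. The settings on brightest and equal clusters touch only Dll1 and Rbpj, whose dimmer clusters were equal on both arrays. Subtraction of the intensity trend was the setting that could change a direction. Notch1 ranged from 0.63 to 0.74, Jag1 from 0.59 to 0.70 and Hes1 from 0.29 to 0.40, while Hey1 ranged from -0.51 to -0.30. Jag2, just past 1.5-fold, was below it at 0.49 with a pseudocount of 16 and at 0.49 after subtraction of the intensity trend. Dll1 stayed between 0.00 and 0.07.

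**Figure D5:**
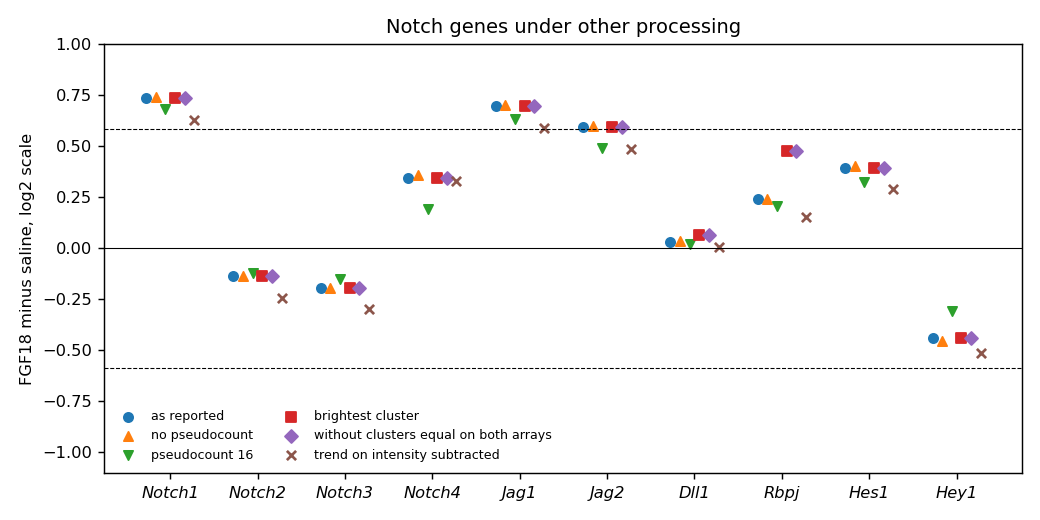
Difference of FGF18 from saline in log2 units (vertical axis) of the 10 Notch genes as reported and under 5 other ways of processing (symbols). Dashed lines mark 1.5-fold. Notch1 and Jag1 stay at or above the upper dashed line, Jag2 crosses it, and Rbpj moves most, between 0.15 and 0.48.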

How the data were processed

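The table analysed holds intensities deposited by the authors, on a linear scale as judged from their values (1.44 to 11532 for FGF18, 1.39 to 11488 for saline). Per the submitters' processing notes, Affymetrix Expression Console and RMA, which corrects background, normalizes arrays and summarises probes, made them; their versions and annotation are not stated. Groups were taken from the sample labels. Of 41345 transcript clusters, 23521 had exactly 1 gene symbol in the platform annotation, 1814 had several and 16010 none. Clusters with 1 symbol were converted to log2(intensity + 1) and averaged per symbol, giving 22180 genes. All 10 Notch genes matched the GRCm38.p6 gene table by Entrez identifier.

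With 1 array per group the difference was given without a test. A difference of 1.5-fold was counted among genes whose mean reached the median of all gene means (4.15), and 2-fold beside it. The number of arrays limits the precision. Steps were tested on simulated data. Gene and marker lists, and the 2 highest and 2 lowest brighter members named from each, were chosen with earlier results of these data known. Some listed genes are not reported here. Genes named from below that level were chosen after their values were seen. Python 3.11.15, pandas 2.3.3, statsmodels 0.14.6 and matplotlib 3.10.9 were used.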

Additional observations from a re-analysis of the deposited data

How the results depend on the processing

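No paired analysis was possible because each group is 1 array. Alternatives were pseudocounts of 16 or none, the brightest cluster of a symbol, clusters with several symbols under their first, centring on the median over genes, subtraction of a lowess trend (fraction 0.3) of difference on intensity, other filters and a 2-fold threshold; leaving out clusters equal on both arrays, and the basal marker sum without Krt14, were added after seeing the data. Leaving out a replicate could not be done.

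The median difference of the 10 genes ranged from 0.20 to 0.37 under these. The count of genes at least 1.5-fold higher was 3, or 2 with a pseudocount of 16 and 2 after trend subtraction, and 0 at 2-fold; the count lower was 0 under each. Rbpj ranged from 0.15 to 0.48. Of 11090 brighter genes, 404 reached 1.5-fold higher, against 119 with a pseudocount of 16, 266 after trend subtraction, 206 with a filter at the 75th percentile and 42 at 2-fold. The 514 lower genes were 300 with a pseudocount of 16, 650 after trend subtraction, 321 with that filter, 920 with no filter and 183 at 2-fold. The cause of these shifts was not tested beyond what each setting does by construction. After trend subtraction the corepressor median was 0.06 and that of skeletal muscle markers -0.19. With a pseudocount of 16 the medians were 0.10 for the sugar-adding enzymes and -0.07 for the ubiquitin and endocytosis genes. In the same setting they were 0.17 for outer root sheath and bulge, 0.28 for macrophage and 0.08 for T cell markers. Depth does not apply to arrays, and the files hold no detection call.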

Other observations

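Of the 41345 transcript clusters, 2026 had values equal on both arrays to every deposited digit, among them 1235 with a single symbol. The dimmer clusters of Dll1 (14.4) and Rbpj (14.7) are 2 of these. Averaging them with the brighter clusters of the same genes brings the difference of Rbpj to 0.24, where its brighter cluster alone gives 0.48. Dtx1, a Deltex gene averaged over 2 clusters, read 17.2 on the FGF18 array and 12.4 on the saline array.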
